A study of Saccharomyces cerevisiae with 167 samples.

Results

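The regions described here are the stretches between yeast genes at which Snf2 was recovered most strongly after heat shock. Of 5811 microarray probes that carry the letter i and the name of an ORF, and so lie between genes, 291 were selected on their Snf2 signal: they are the highest 5% by the mean of the 5 heat shock arrays, each centred on its median. The 291 member probes lie in 277 distinct regions, and 28 of them share a region with another member. The series measured Saccharomyces cerevisiae on 167 arrays in dual colour, and every value below is a log2 ratio of the Cy5 to the Cy3 channel of an array.

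The groups used were Myc-tagged Snf2 after heat shock (5 arrays) and at 30 °C (3 arrays), each against input DNA of the tagged cells. The temperature of that heat shock and the strain of the tagged cells are not given further. H4 and acetylated H4 were each compared directly between heat shocked (39 °C) and unstressed (30 °C) cells (3 arrays each). They were also set against sonicated genomic DNA at 39 °C and at 30 °C, and acetylated H4 against H4 at both temperatures (3 arrays each). Stationary phase cells were compared with log phase cells for H4 and for mRNA (3 arrays each), and heat shocked with unstressed cells for mRNA (3 arrays). Time courses of H4 and acetylated H4 followed snf2 deletion cells and wild-type cells from T0 to T900, with 2 to 3 sets per time, and the mRNA course had 6 arrays of the deletion and 7 of wild type, all against control RNA taken from wild-type cells before stress. Single arrays compared snf2 deletion with wild type at 39 °C and at 30 °C, and 39 °C with 30 °C within each strain. Matching single arrays were made for deletions of CHD1, ISW1 and ISW2. The sources used here give no untagged control for the Snf2 arrays, so signal that does not depend on Snf2 was not measured, and nothing states whether the sets came from separate cultures; p-values then measure the spread between these arrays.

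SWI/SNF is a chromatin remodelling complex, and Snf2 is its ATPase, which uses ATP to slide or evict nucleosomes. Histone H4 is part of every nucleosome, so its recovery at a region reports nucleosome occupancy, and acetylation of its tail is a mark common at active promoters. In heat shocked yeast the factor Hsf1 drives genes of protein folding, the chaperones, and the factors Msn2 and Msn4 drive a wider set of general stress genes. Promoter sequences were not used here.

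Snf2 after heat shock defined the list, so its values describe the members and test nothing. The member with the highest mean, the probe at the promoter of CAL4, had 1.47, 1.00, 0.63, 7.10 and -0.20 on heat arrays 1 to 5, so that its rank came from array 4 alone. The second, between SPL2 and ARO9 (ARO9 encodes an aminotransferase of aromatic amino acid breakdown), had 1.31, 2.04, 2.08, 2.0 and 1.19, against 0.36, 0.57 and 0.53 at 30 °C. The probe at ARO10, a decarboxylase of the same pathway, had 1.29, 1.25, 1.63, 2.07 and 1.40, against -0.07, -0.05 and 0.42 on the 3 arrays at 30 °C. BTN2, which helps to sort misfolded proteins, had 1.07, 1.15, 1.78, 1.82 and 1.16 after heat shock, against -0.15, 0.55 and 0.03 at 30 °C. At both ARO10 and BTN2 all heat arrays lay above all arrays at 30 °C. At the lower edge of the list lay the promoters of TEF1 and SGT2 (both 0.66) and of PRR1 (0.66 at rank 291), and the first probe outside, between GAL10 and GAL1, had 0.66 as well, so the list has no gap at its edge.

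Of the members, 230 were above 0 on all 5 heat arrays, 59 on 4 and 2 on 3. Only 124 were in the highest 5% of at least 3 single arrays, and 12 had 1 array more than 1 log2 unit above the next. The list without array 1 shared 225 of its 291 probes with the full list, and the lists without arrays 2 to 5 shared 242, 240, 244 and 248. The arrays were not equally alike: across the 5811 probes heat array 1 had Pearson r of 0.63 and 0.60 with 30 °C arrays 1 and 2 but 0.20 with heat array 5, which in turn had r of 0.45 with 30 °C array 3. The labels name no batch.

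The members split by their Snf2 level at 30 °C, which the rule did not use. Unstressed Snf2 had a median of 0.65 over the members and 0.04 over the other 5520 probes. By limma, with Benjamini-Hochberg adjustment over all probes and a threshold of 0.05 as in all tests below, 47 of 291 members (16.2%) were above 0 at 30 °C and none was below, against 4.18% of all 5811 probes above 0. That count rests on single arrays: it was 55.0% of members without 30 °C array 3 and 0% without array 1. A set of 87 members had a mean of 1 or above at 30 °C, and 35 had a mean of 0 or below. The 87 had medians of 1.51, 1.18, 0.74, 0.58 and 0.08 on heat arrays 1 to 5, and of 1.43, 1.91 and 0.16 on the arrays at 30 °C. They were thus high on the arrays that resemble each other and close to 0 on heat array 5 and 30 °C array 3. Their values differed by set without Snf2 as well. In the wild-type H4 course their median was 0.30 to 0.94 in set 3 and -0.17 to -0.095 in set 2. On 30 °C array 2 the upper quartile of the other 5520 probes was 0.72, against 0.30 and 0.23 on arrays 1 and 3. The part of an array batch in the place of the 87 on the list was not tested. The 35 with no signal at 30 °C had medians of 0.55, 0.61, 1.07, 1.04 and 0.64 after heat shock.

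In all, 82 members had all 5 heat arrays above all 3 arrays at 30 °C, against 5.51% of all such probes, which is a description since the heat arrays chose the members. Averaged over arrays, 201 of 291 members were higher after heat shock than at 30 °C, and 85 members were also in the highest 5% of the probes at 30 °C.

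**Figure D1:**
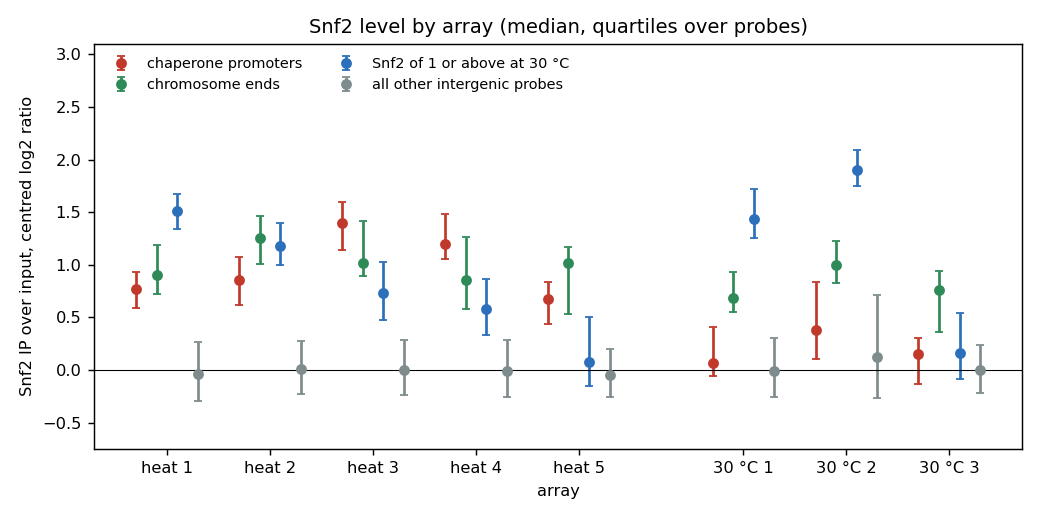
Snf2 IP over input (centred log2 ratio) on each of the 5 heat shock arrays and the 3 arrays at 30 °C, as medians (points) and quartiles (bars) over probes, for the 28 members at chaperone promoters, the 45 members at chromosome ends, the 87 members with a mean of 1 or above at 30 °C and the 5520 other intergenic probes; the first 3 sets overlap in part. Chaperone promoters have medians of 0.67 to 1.39 on the heat arrays and 0.07 to 0.38 at 30 °C, whereas chromosome ends are high in both.

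By position, 138 members (47.4%, against 45.8% of all such probes) lay at the promoter of 1 gene and 88 (30.2%, against 25.1%) between divergent genes. A further 42 (14.4%, against 23.2%) lay between convergent genes and so at no promoter, 18 lay beside an RNA gene and 5 beyond the last annotated gene of a chromosome arm. Chromosome XII carried 53 members of its 493 probes. Counting all members within the outermost 5 genes of an arm, 45 members (15.5%, against 4.25% of all such probes) were at chromosome ends.

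Chaperone promoters made the clearest group. Of 36 probes that serve a gene of the chaperone list, 28 were members (77.8%), and these serve 28 of the 34 list genes with a probe. The list was chosen with earlier results of these data known, so this share is a description and no test. It also holds the stress proteins HSP12 and HSP30, described below, which are counted as chaperones throughout. The 28 genes include HSP82 and HSC82 (Hsp90), SSA1, SSA2 and SSA4 (Hsp70), SSE1 and SSE2 (their exchange factors), HSP104 (which disentangles aggregates), HSP26 and HSP42 (small heat shock proteins), SIS1 and YDJ1 (Hsp40) and KAR2 (the Hsp70 of the endoplasmic reticulum). The mitochondrial HSP60, HSP10, HSP78, SSC1 and MDJ1 were there too. Chaperone probes outside the list were those of CDC37, MGE1, OPI10, SSA3, SSB1 and XDJ1 and a second probe each of HSP10 and HSP42, with means from -0.31 to 0.39. The count was 25 to 28 of 36 with any heat array left out and 23 with the median in place of the mean. On single arrays it was 3, 11, 26, 26 and 16 for heat arrays 1 to 5, and 3, 1 and 1 at 30 °C.

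HSP104 had 0.83, 1.26, 1.34, 1.28 and 1.16 after heat shock, against -0.20, 0.34 and 0.66 at 30 °C, with no overlap. CPR6, an Hsp90 partner, had 0.90, 1.00, 1.77, 1.61 and 0.95, against -0.04, -0.98 and -0.27. For 13 of the 28 chaperone members all heat arrays lay above all arrays at 30 °C, against 5.51% of all such probes. This is a description, since the heat arrays chose the members. HSP26 (2.23, 0.73, 0.66, 1.06 and -0.48, against 1.27, 1.22 and -0.12) and HSP30 (1.84, 1.23, 0.61, 0.07 and 0.57, against 1.76, 1.93 and 0.26) overlapped between the states. HSP30 encodes a stress protein of the plasma membrane. None of the 28 passed the test at 30 °C, where 4.18% of all such probes were above 0, so none of 28 is near that share.

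Chromosome ends made a second group, with Snf2 high in both states. Their 45 members had medians of 0.90, 1.26, 1.02, 0.85 and 1.02 on the heat arrays, and of 0.69, 1.00 and 0.76 on the arrays at 30 °C, including 30 °C array 3. At 30 °C 25 of the 45 passed the test, as did 8.94% of the members outside chromosome ends. They sit beside genes of subtelomeric families, such as YRF1 (helicases of the Y' repeats), COS and PAU, whose copies are near-identical, so a probe can take up signal from several chromosome ends. The highest was the probe between YRF1-6 and COS1, at 1.68 after heat shock. Another stretch, 11 members in the ribosomal DNA and ASP3 region of chromosome XII (ASP3 encodes a secreted asparaginase), had medians of 0.97, 0.80, 1.05, 0.60 and 0.93 after heat shock, against 0.21, -0.30 and -0.09 at 30 °C. H4 at these 11 was lower after heat shock at 1 member on the direct arrays, with a median of -0.01. In the H4 time course described below, their median change was -0.58 in the arrays labelled snf2 deletion and -0.69 in wild type, with none of the 11 past the test in either.

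Other lists held fewer members. General stress genes had 7 member probes of 36 (19.4%), which serve DDR2, GRE3, HXK1, SPI1, TFS1, TMA10 and YGP1, with a median Snf2 of 0.76 after heat shock and 0.01 at 30 °C. CTT1 (catalase) and TPS1 (trehalose synthesis) had no member probe. Cell wall genes had 8 of 29, among them those of CWP1, CWP2 and SED1, and membrane transport genes 6 of 28, among them those of the drug exporters PDR5 and SNQ2. Glycolytic genes had 5 of 28 (ADH1, CDC19, PGI1, TDH2 and TDH3) and translation factors 4 of 19 (EFB1, HYP2, TEF1 and TEF2). Ribosomal protein genes had 3 of 133 (2.26%: RPL19A, RPL19B and RPS21A), amino acid synthesis 1 of 41 (MET3), and ribosome biogenesis none of 40. Probes between divergent genes count for both genes, so the lists are not independent. The EFB1 probe also serves SSA1, the TEF2 probe also serves TKL2, and TDH2 and MET3 share a probe. Of 19 probes at genes long known as SWI/SNF targets, such as SUC2, HO and INO1, none was a member, nor was any of 6 at histone genes. The rule takes 5% of all such probes, so none among so few is near that share. These counts do not show an absence of Snf2 at those genes.

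After heat shock H4 was lower at a large share of the members. On the direct arrays 114 of 291 members (39.2%) were lower and 4 were higher (1.37%), against 13.7% lower and 8.93% higher among all intergenic probes. The median change was -0.17 over members, with -0.20, -0.20 and -0.11 on the 3 arrays, and -0.00 over the other probes. Chaperone promoters carried the largest falls: 27 of 28 were lower, with a median of -1.25 and values down to -2.18. Of the 41 intergenic probes in the series with a fall of at least 2-fold, 28 (68.3%) were members.

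HSP104 had H4 ratios of -2.17, -2.54 and -1.84 on the 3 arrays (adjusted p = 0.000129). The next largest falls were at HSP12 (a membrane-protecting stress protein; -2.07 ± 0.11 SD, n = 3), SSA4 (-1.93 ± 0.20), HSP30 (-1.85 ± 0.18) and KAR2 (-1.75 ± 0.21), with limma adjusted p of 9.19e-05 or below. The exception among the 28 was YDJ1, at -0.02, -0.15 and -0.22 (limma adjusted p = 0.186 over n = 3 arrays). All 7 general stress members were lower, with a median of -0.77 and DDR2 the lowest at -1.08 ± 0.15. Another 80 members that were lower belong to neither list. Among them were ADH1 (-0.67 ± 0.12), TDH3 (-0.85 ± 0.13) and ZPR1 (a partner of translation elongation factor; -1.02 ± 0.22), and the 2 aromatic amino acid promoters ARO9 (-0.36 ± 0.21) and ARO10 (-0.28 ± 0.03). ARO9 and ARO10 thus ranked 2 and 7 for Snf2 with small falls of H4. The 4 members with a rise, which were at YLR287C and DGK1 and between MRPL23 and RPB2 and RPS28B and NEJ1, had 0.33 to 0.41.

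Members with a low mean Snf2 signal at 30 °C had the larger falls of H4. Where the 30 °C level was 0 or below, 24 of 35 members (68.6%) were lower, with a median change of -0.53. From 0 to 0.25 it was 32 of 49 (median -0.38), from 0.25 to 0.5 it was 17 of 40 (-0.19), and from 0.5 to 0.75 it was 21 of 41 (-0.27). From 0.75 to 1 it was 10 of 39 (-0.07), and above 1 it was 10 of 87 (-0.02). Of all intergenic probes 13.7% were lower, so the share above 1 (11.5%) was no larger than that. The 87 members of that last bin had medians of 1.43, 1.91 and 0.16 on 30 °C arrays 1 to 3, so their place in it rests mainly on arrays 1 and 2. Chaperone promoters had a median 30 °C level of 0.25, with 27 of 28 lower in H4, and the trend without them was not computed. Chromosome ends had 11 of 45 lower, with a median of -0.06. Across the 291 members the Snf2 difference (heat shock minus 30 °C) and the H4 change had a Spearman rho of -0.51, and across the other 5520 probes -0.10. This is a description across probes, which share arrays and regions, and the Snf2 difference contains the values that chose the members.

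**Figure D2:**
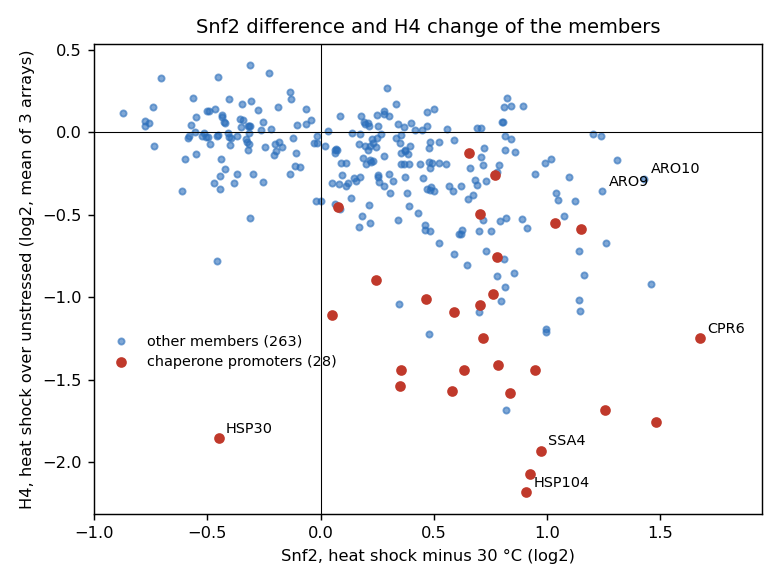
Each point is 1 of the 291 members, with the Snf2 difference between heat shock (mean of 5 arrays) and 30 °C (mean of 3) in log2 on the x axis and the H4 change between heat shocked and unstressed cells (log2, mean of 3 direct arrays) on the y axis. Chaperone promoters (28) reach -2.18 for H4, and most lie to the right of 0, whereas HSP30 lies to the left.

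Acetylated H4 followed H4. On the direct arrays 92 members (31.6%) were lower and 15 (5.15%) higher, against 17.1% and 11.3% of all intergenic probes. Both marks were lower at 77 members (26.5%, against 6.23% of all intergenic probes). The median over the 28 chaperone promoters was -1.02, with 24 lower and 1 higher. HSP30 had -2.30, -1.91 and -2.66, HSP104 -1.93 ± 0.14 and APJ1 (an Hsp40) -1.79 ± 0.18 (SD, n = 3; limma adjusted p of 0.000195 or below). The chaperone promoter with a rise was that of HSP60, where acetylated H4 was 0.42, 0.30 and 0.42 while H4 was -0.48, -0.44 and -0.45. The largest rise among members was at POL31, a DNA polymerase subunit, at 0.92 (SE 0.09, limma adjusted p = 0.000918).

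**Figure D3:**
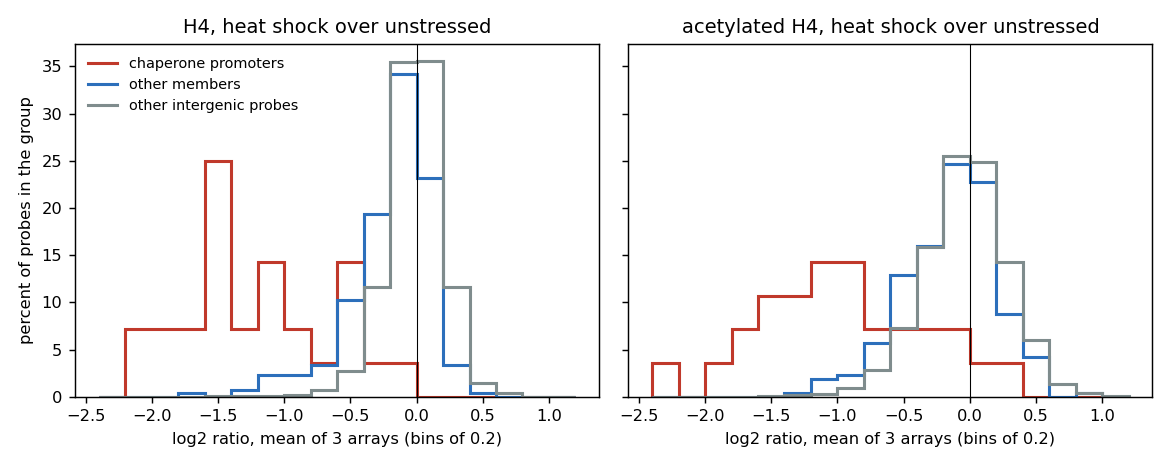
Percent of probes per bin of 0.2 log2 units for the change of H4 (left) and acetylated H4 (right) between heat shocked and unstressed cells, mean of 3 direct arrays, values beyond the axis in the last bin. Chaperone promoters (28 members) have medians of -1.25 and -1.02, while the other 263 members peak near 0 with more probes on the negative side than the 5520 other intergenic probes.

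The route through genomic DNA, on other arrays, gave smaller counts. For H4 at 39 °C against 30 °C, 8 members were lower (2.75%, against 0.207% of all intergenic probes), led by SSA4 (-1.33, SE 0.19), KAR2 (-1.19) and CPR6 (-1.19). That share was 0% without set 2 or set 3 and 5.84% without set 1. For acetylated H4, 40 members were lower (13.7%, against 3.85%) and 1 was higher (0.344%, against 1.81%), with HSP30 at -2.06 (SE 0.15) and POL31 again the rise, at 0.85. The share was 3.09% without set 1 and 5.84% without set 2. On these arrays the members had low H4 before heat shock as well: their medians were -0.57, -0.42 and -0.47 at 39 °C and -0.32, -0.32 and -0.30 at 30 °C, while the other probes lay between -0.08 and 0.00. For the 28 chaperone promoters they were -1.03, -0.71 and -0.76 at 39 °C and -0.12, -0.24 and -0.16 at 30 °C. With H4 as the denominator, acetylation per H4 was called at no member in either direction (0% higher and 0.0344% lower among all intergenic probes), and 44 members had an unadjusted p under 0.05 (15.1%, against 16.7%). The median change per H4 was 0.03 over members and 0.12 over chaperone promoters.

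Stationary phase differed from heat shock at these regions. H4 was higher at 29 members (9.97%) and lower at 3 (1.03%), against 1.88% and 0.258% of all intergenic probes. None of the 28 chaperone promoters passed this test, and their median was 0.01. Of the 29, 14 were at chromosome ends, and the largest values were on chromosome XII. A probe flanked by RRT15 and MAS1, not counted in the ribosomal DNA and ASP3 stretch, had 1.98 (SE 0.13). The promoter of RNH203, counted in that stretch, had 1.70. Copies in that stretch and at chromosome ends are nearly identical, so their probes can share signal. The share of members that were higher was 0% without set 1, 0.687% without set 2 and 6.53% without set 3.

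The snf2 deletion was followed in the time courses. The SNF2 ORF probe checks the strain: on the H4 arrays it lay between -2.80 and -0.85 in the arrays labelled snf2 deletion (median -1.68) and between -0.12 and 0.42 in wild type (median 0.10), with no overlap. For acetylated H4 it was -3.09 to -1.20 in the deletion and -1.52 to -0.25 in wild type, which overlap. In the mRNA course it was -0.64 to 0.02 in the arrays labelled snf2 deletion and -0.34 to 0.67 in wild type, which overlap. Both arrays labelled snf2 deletion at 0 s (-0.05 and -0.03) lay below both wild-type arrays (0.32 and 0.67), but neither was far below 0, so the probe gives no clear loss of SNF2 mRNA and the strain in that course rests on the labels. The reference DNA of acetylated H4 is labelled as deletion strain DNA in sets 2 and 3 of the deletion and as wild-type DNA in the other arrays. Going by these labels, strain and reference cannot be told apart for that mark in sets 2 and 3. A reference from the deletion strain would lack SNF2 as well. In the deletion arrays the SNF2 probe was -2.91 to -1.335 in set 2 and -3.09 to -2.50 in set 3. In set 1, labelled with wild-type DNA, it was -2.03 to -1.20. Whether the label of deletion strain DNA holds in sets 2 and 3 was not tested.

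The H4 response was compared between the strains. Averaged over T5 to T900 and set against T0, the median H4 change was -0.06 in the deletion and -0.08 in wild type, and no member was called in the deletion, in wild type or for the difference between them (0% of all intergenic probes in each). That fit did not take set numbers as pairs, although 37 of 39 H4 course arrays resembled their own set number best. Set 1 had no T0 array, here or in the acetylated H4 course, so differences between sets can enter these changes from T0. With the set as a block, some members were lower in wild type and fewer in the deletion (shares in the section on processing). The lack of calls thus depends on the fit. Unadjusted p-values under 0.05 were seen at 13 members in the deletion (4.47%, against 2.36% of all intergenic probes), at 30 in wild type (10.3%, against 3.25%) and at 4 for the difference (1.37%, against 1.55%). Within single sets, the median change of the chaperone promoters from T0 was below 0 at all 12 combinations of time and set in the deletion (-0.70 to -0.07) and at all 12 in wild type (-0.78 to -0.14). For the other intergenic probes it was below 0 at 4 of 12 in the deletion and 6 of 12 in wild type. All times of a set share its T0 array, so the 12 are not independent. At T900 no member was called in the deletion (0%; 20 had an unadjusted p under 0.05, 6.87% against 6.45% of all intergenic probes), whereas 4 were lower in wild type (1.37%, against 0.086%; 0.345% without set 1 and 0% without set 3; unadjusted, 8.25% against 3.08%). None differed between strains (0%; 5 had an unadjusted p under 0.05, 1.72% against 4.01%). The T900 contrast was added after the data were seen. At T300, chaperone promoters had a median of -0.88 ± 0.24 in the deletion and -0.96 ± 0.13 in wild type, against -0.34 ± 0.20 and -0.44 ± 0.04 at T0 (SD over 3 sets, or 2 sets at T0). H4 at T0 was called at no member between strains (0% of all; 18 had an unadjusted p under 0.05, 6.19% against 2.39%).

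The 4 members called at T900 in wild type were HSP12, DDR2, a second probe on the other side of DDR2, and a probe between YAP5 and FLO11. At HSP12, H4 was -0.08, -0.28 and -0.19 at T300 in the deletion, against -1.58, -1.77 and -1.93 in wild type. The groups did not overlap at that time, while at T0 they did, with 0.21 and 0.34 in the deletion and 0.06 and 0.64 in wild type. At T900 the change from T0 was -0.91 in the deletion and -2.12 in wild type, and the strain difference of 1.20 did not pass the limma test (adjusted p = 1.0). DDR2, a stress gene of the Msn2 and Msn4 set, had H4 at -0.59, -0.51 and -0.50 at T300 in the deletion, against -1.78, -1.65 and -1.88 in wild type. Its T900 change was -0.24 in the deletion and -1.33 in wild type (difference 1.08, limma adjusted p = 1.0). SSA1 had -1.33, -1.41 and -2.49 at T300 in the deletion, against -1.80, -1.68 and -2.30 in wild type, which overlap. HSP12 and DDR2 were chosen for these calls, so their T300 values are a description. The member with the largest strain difference of the H4 response among those lower on the direct arrays was MDJ1 (1.79, limma adjusted p = 1.0), and it rests on 1 wild-type T0 array at 3.11, where the other was -0.38.

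Acetylated H4 was more spread. Its median change over all times was -0.13 in the deletion, with 1 member lower (0.344%, against 0.0172%; 0% with any set left out), and -0.28 in wild type, with none lower (0%). Unadjusted p-values under 0.05 were seen at 53 members in the deletion (18.2%, against 6.8% of all intergenic probes) and 42 in wild type (14.4%, against 5.18%). No member was called for the strain difference (0%; 17 had an unadjusted p under 0.05, 5.84% against 5.11%). At T900, 2 members were lower in the deletion (0.687%, against 0.0344%; 0% without set 2 or set 3), none in wild type (0.0344% of all) and none for the difference (0%). Unadjusted p-values under 0.05 were seen there at 38 members in the deletion (13.1%, against 6.42%), 37 in wild type (12.7%, against 8.21%) and 20 for the difference (6.87%, against 2.96%). The 2 members called were SSA1 (-2.06, limma adjusted p = 0.0191) and the probe between CUE4 and YML100W-A (-2.14). At T0, 13 members were higher in the deletion (4.47%, against 1.1%) and 1 was lower (0.344%, against 0.0172%). TDH3 led with 0.51 and 0.00 in the deletion, against -1.76 and -1.67 in wild type (difference 1.97, SE 0.30), and the fall was at CAL4. The share higher at T0 was 10.7% without set 1, and 0% without set 2 or set 3.

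**Figure D4:**
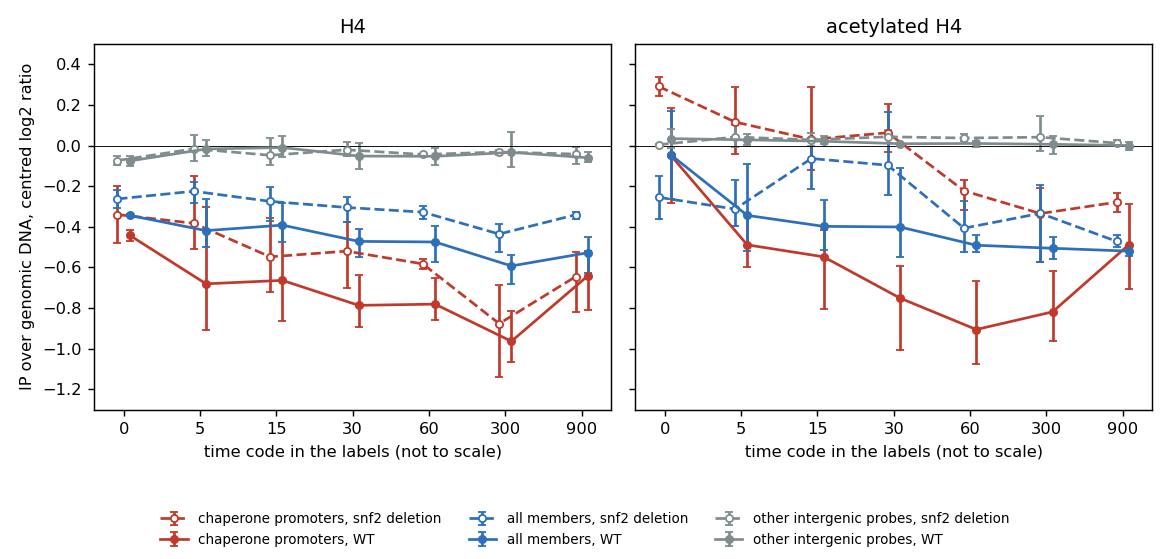
H4 (left) and acetylated H4 (right) over genomic DNA (centred log2 ratio) against the time code of the labels, which carries no unit there, as means over sets of the median over probes, with bars from the lowest to the highest set; snf2 deletion cells are dashed with open points and wild type solid. H4 at chaperone promoters reaches -0.88 in the deletion and -0.96 in wild type at T300, while other intergenic probes stay near 0.

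The members serve 293 genes with an ORF probe. After heat shock 101 of them were higher in mRNA (34.5%) and 18 were lower (6.14%), against 16.6% and 18.0% of all ORF probes. In that comparison limma assigned a single spread to all genes (SE 0.19), so values are given with their arrays in place of p-values. Of the 28 chaperone genes, 27 were higher, with a median of 2.97; CUR1 did not pass, at 0.34, -1.03 and -0.20. CPR6 had 4.57, 4.60 and 3.97, HSP12 4.04, 4.08 and 4.08, and BTN2 3.88, 3.96 and 3.85. Among the general stress genes 6 of 7 were higher, with DDR2 at 3.90 and TMA10 at 3.87, and HXK1 did not pass (0.39, -0.26 and 0.47). ARO9 (2.60, 2.61 and 2.11) and ARO10 (1.99, 2.13 and 1.45) were higher too. The largest falls were the ribosomal protein genes RPL19B (-3.17, -2.36 and -2.93), RPL19A (mean -2.56) and RPS21A (mean -2.45). RPL19A and RPL19B are near-identical copies and may share signal.

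Members with Snf2 of 1 or above at 30 °C served 85 genes, of which 12 were higher and 9 lower, while those of 0 or below served 42, of which 19 were higher and 1 lower. Chromosome ends served 34 genes, with 2 higher and none lower. Of all ORF probes 16.6% were higher and 18.0% lower. Rises among the 85 genes and the 34 genes were thus no more common than over all ORF probes. Over 328 pairs of a member and a gene it serves, the H4 change and the mRNA change had a Spearman rho of -0.47, a description across pairs that share arrays and genes. In stationary phase 77 served genes were higher (26.3%, against 17.6%) and 28 were lower (9.56%, against 17.7%), led by DDR2 at 4.38 and the cell wall gene CWP1 at -4.37. The share that was higher was 16.4% without set 1.

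In the mRNA time course served genes changed in the arrays of both labels, of which those labelled snf2 deletion show no clear loss of SNF2 mRNA. At 900 s against 0 s, 48 were higher in the arrays labelled deletion (16.4%, against 3.85%) and 11 lower (3.75%, against 6.08%), and 88 were higher in wild type (30.0%, against 10.4%) and 22 lower (7.51%, against 15.8%). Leaving out wild-type 0 s array 1 or 2 made the wild-type share higher 18.8% or 19.5%. There was 1 array labelled deletion at 900 s and 2 of wild type, so fewer calls in the arrays labelled deletion do not show a smaller response. Of the chaperone genes 24 of 28 were higher in the arrays labelled deletion (median 1.80) and 27 of 28 in wild type (median 2.56). The difference of the responses (labelled deletion minus wild type) was below 0 for 21 of 28 (and for 45.7% of all ORF probes), with a median of -0.60, but none of the 28 differences passed the limma test. FES1, an Hsp70 exchange factor, had 2.68 at 900 s in the array labelled deletion, against 3.23 and 3.14 in wild type (difference of the rises -1.39, limma adjusted p = 0.0795). Across all served genes the difference was below 0 for 171 of 293 (58.4%), 1 difference was called lower (0.341%, against 0.176%) and none higher (0%, against 0.0958%). The 1 was DIP5, an amino acid permease, at -0.76 at 900 s in the array labelled deletion, against 1.54 and 1.48 in wild type (difference of the responses -2.17, limma adjusted p = 0.0359). That call was lost (0% of served genes) without any 1 of the 4 arrays at 0 s. TKL2, a transketolase, had a response of 0.60 in the arrays labelled deletion, which did not pass, and of 3.66 in wild type (difference -3.06, limma adjusted p = 0.0581).

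**Figure D5:**
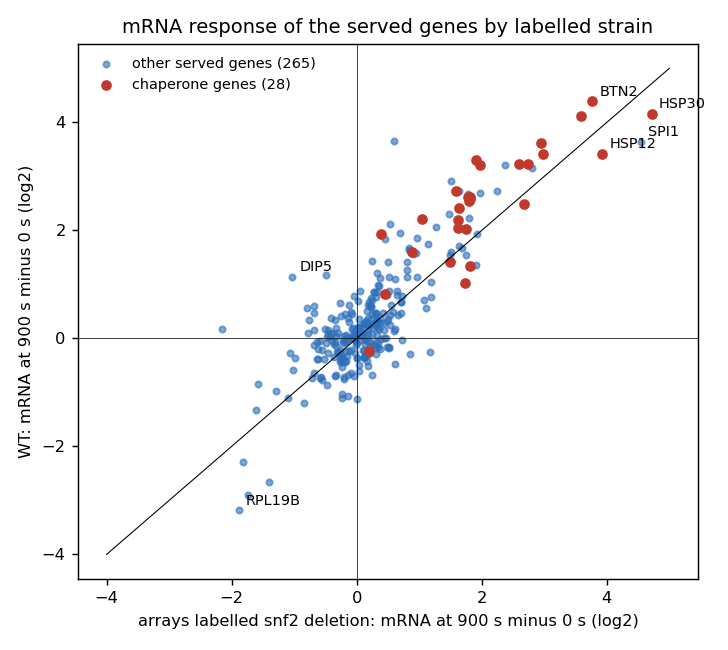
Change of mRNA between 900 s and 0 s (log2) in the arrays labelled snf2 deletion (x axis, 1 array at 900 s) and in wild type (y axis, 2 arrays) for each of the 293 genes that members serve; the diagonal marks equal responses. Of the 28 chaperone genes 21 lie above the diagonal, with a smaller change in the arrays labelled deletion (none passed the test), and HSP30 and HSP12 lie below it.

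Before heat shock, several served genes were lower in the 2 arrays of the time course labelled snf2 deletion than in the 2 of wild type, a direction that rests on the labels, since SNF2 mRNA showed no clear loss there. At 0 s 28 were lower (9.56%, against 4.42%) and 9 were higher (3.07%, against 1.92%). Leaving out wild-type array 1 or 2 left 0.683% or 1.02% of served genes lower, and leaving out array 1 or 2 labelled deletion left 5.8% or 4.1%. YGP1, a secreted glycoprotein of stress and nutrient limitation, had -2.81 and -3.16 in the arrays labelled deletion, against 0.26 and 0.32 in wild type (difference -3.28, SE 0.19, limma adjusted p = 0.00157). HSP30 had -2.80 and -2.97 in those arrays, against -0.13 and -0.24 in wild type. CWP1 (-2.48), ARO9 (-2.09) and HSP12 (-1.96) followed, and SPI1 (-1.92) and DDR2 (-1.88) were close. HSP12 stood at -1.10 and -1.64 at 0 s, 0.30 at 300 s and 2.56 at 900 s in the arrays labelled deletion, against 0.53 and 0.65, 2.92, and 3.94 and 4.07 in wild type. HSP12 rose by 3.93 in the arrays labelled deletion and by 3.42 in wild type over the 900 s, from unlike starting levels. SNA2 had the largest positive difference, 1.89.

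The single arrays of total RNA gave other values for the same genes at 30 °C. There HSP12 was 4.64, YGP1 4.07 and DDR2 3.97 in RNA labelled snf2 deletion over wild type, the opposite direction from the time course, and HSP30 was 0.51. The SNF2 probe was -0.40 on that array and -1.34 on the array at 39 °C. At 39 °C HSP12 was 0.53, YGP1 0.59, DDR2 -0.65, HSP30 -2.38, ARO9 -1.98 and ARO10 -1.69. On the 30 °C array 45 served genes were at least 2-fold higher (15.4%, against 6.15% of all ORF probes) and 8 at least 2-fold lower (2.73%, against 3.34%). On the 39 °C array 16 were at least 2-fold higher (5.46%, against 7.97%) and 14 at least 2-fold lower (4.78%, against 4.6%). The median over all ORF probes was 0.12 on the 30 °C array and 0.16 on the 39 °C array. Over served genes the 30 °C median was 0.295 on the snf2 deletion array. It was 0.45, 0.23 and 0.31 on the single 30 °C arrays for deletions of CHD1, ISW1 and ISW2. A shift upward at 30 °C was thus not particular to the snf2 deletion. Chaperone genes had a median of -0.36 on the snf2 deletion array at 39 °C and 0.36 at 30 °C. For the deletions of CHD1, ISW1 and ISW2 it was -0.21, -0.17 and 0.06 at 39 °C. At 30 °C it was 0.98, 0.27 and 0.41 in the same order. Further single arrays compared 39 °C with 30 °C within a strain. HSP12 was 2.59 in the array labelled snf2 deletion and 5.97 in wild type. YGP1 was 1.11 in the array labelled snf2 deletion and 3.84 in wild type. Chaperone genes had medians of 2.18 in the array labelled snf2 deletion, with 24 of 28 at least 2-fold higher, and of 2.67 in wild type, with 25. For the deletions of CHD1, ISW1 and ISW2 the medians were 1.65, 2.06 and 2.47. A smaller rise than in wild type was thus not particular to the snf2 deletion array. Over all served genes 62 (21.2%) were at least 2-fold higher in the array labelled snf2 deletion, against 5.72% of all ORF probes, and 64 (21.8%) in wild type, against 5.51%. With 1 array each, these differences have no replicate check.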

How the data were processed

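The deposited values are log2 ratios of Cy5 to Cy3 per probe (13029 probes, 167 arrays), per the labels and the values. How the authors scanned, filtered and normalized the arrays was not found in the labels or files. Per the labels, each sample's first source was in Cy5 and its reference in Cy3. Deposited array medians ranged from -0.14 to 0.26. The number of arrays limits the precision.

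Each array was centred on its median. Intergenic probes were placed to the right of the ORF in their name with the gene order of RefSeq assembly R64, used for names and order only, and a served gene is one whose start faces the probe. Over 5094 probes the H4 change of the probe had r of 0.38 with the H4 change inside the named ORF, 0.40 with that inside the gene to the right of the probe and 0.09 with that inside the gene to the left of the named ORF. Group means were fitted over all probes (ORF probes for mRNA) using limma 3.58.1 (R 4.3.3; lmFit, eBayes, both sides), with Benjamini-Hochberg adjusted p under 0.05 as the threshold, and the fits were tested on simulated data. The 2 repeats of H4 set 2 at T900 in the deletion were averaged. Summaries used Python 3.11.15 and pandas 2.3.3.

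Members and gene lists were chosen with earlier results of these data known. Named are the 20 members highest for Snf2, those at the threshold, every chaperone member, the largest 5 changes in each direction per comparison, up to 4 members of other lists, up to 3 members with the largest strain difference of the H4 response, and a set of fixed stress genes. TKL2, FES1, SPI1 and DDR2 before heat shock, SSA1 in the time course and the ORF names beyond these rules were chosen after their values were seen. Set numbers were not taken as pairs in the main fits, since same-numbered arrays did not all deviate together. In the time courses most did, with 37 of 39 H4 arrays and 33 of 39 acetylated H4 arrays closest to their own set number. Alternatives were uncentred values, arrays scaled to an equal median absolute deviation, robust eBayes, each set left out, the set as a block, and other member lists.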

Additional observations from a re-analysis of the deposited data

Results flagged for a closer look

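At the promoter of CAL4, Snf2 after heat shock was 7.10 on heat array 4, far from 1.47, 1.00, 0.63 and -0.20 on the other 4 arrays. These values chose the members, so this describes how CAL4 came to be listed and tests nothing; in groups of unselected values chance sets 1 sample as far apart in about 1 of 20.

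DIP5 differed between the strains as labelled: its mRNA response at 900 s was lower in the arrays labelled snf2 deletion (difference -2.17, limma adjusted p = 0.0359), with 1 such array at that time. Those arrays show no clear loss of SNF2 mRNA. No served gene passed without any 1 of the 4 arrays at 0 s.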

How the results depend on the processing

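Values are percent of members, or of served genes for mRNA, past the threshold, with the reported value in brackets; where no value shows it, the cause of a shift was not tested. H4 and acetylated H4 on the direct arrays and mRNA after heat shock stayed within 1.5 times their reported shares under every alternative run. Snf2 at 30 °C [16.2] was 2.75 uncentred, 29.6 with equal median absolute deviation (MAD), 0 to 55.0 with a set left out, 25 for members high on at least 3 arrays and 8.94 without chromosome ends. H4 through genomic DNA [2.75] was 5.15 (MAD), 0 to 5.84 (set left out), 0.344 with the replicate block, 4.83 for the highest 2.5%, 4.84 (3 arrays) and 1.14 without chaperones. Acetylated H4 by that route [13.7] was 3.09 to 13.7 (set left out) and 7.6 without chaperones. The wild-type H4 response [0] was 0.344 uncentred and with robust eBayes, 0.687 (MAD), 0 to 0.345 (set left out) and 3.09 (block), and that of the deletion [0] was 0.344 (block). H4 at T900 in wild type [1.37] was 0 to 1.03 (set left out) and 0.861 for the highest 10%, and in the deletion [0] it was 0.687 (block). The acetylated H4 response in wild type [0] was 0 to 0.344 (set left out). In the deletion [0.344] it was 0 (MAD, any set left out, without chaperones), 0.687 (block), 0.69 (2.5%), 0.172 (10%) and 0.806 (3 arrays). Acetylated H4 between strains at T0 [4.47] was 2.41 (MAD), 0 to 10.7 (set left out), 10.3 (block) and 2.76 (2.5%). At T900 in wild type [0] it was 0.344 (uncentred, block) and 0.172 (10%). At T900 in the deletion [0.687] it was 0 (MAD), 0 to 1.03 (set left out), 1.37 (block), 0.344 (10%), 1.61 (3 arrays) and 0.38 without chaperones. Stationary H4 [9.97] was 0 to 6.53 (set left out), 15.2 (2.5%) and 6.1 without chromosome ends, and stationary mRNA [26.3] was 16.4 to 25.6 (set left out). For mRNA, the strain difference at 0 s [9.56] was 0.683 to 10.6 and wild type at 900 s [30.0] was 18.8 to 31.1, each with an array or set left out. In the arrays labelled deletion, 900 s [16.4] was 9.9 (MAD), 10.8 (10%) and 8.17 without chaperones, and the strain difference at 900 s [0.341] was 1.02 (uncentred), 0 (MAD, 2.5%, named ORF only, 3 arrays), 0 to 1.02 (set left out) and 0.532 (10%). The block rests on set numbers: same-numbered arrays had deviations correlating at -0.142 to 0.0185 for H4 and 0.0377 to 0.0872 for acetylated H4 through genomic DNA, with medians of 0.371 and 0.25 in the H4 and acetylated H4 courses. There 37 of 39 and 33 of 39 arrays resembled their own set number best, a hint from the data and not the design. The T900 contrasts, the 3-array list and the lists without chaperones or chromosome ends were chosen after seeing the data. Of the alternatives for single chaperone promoters, 484 kept direction and call, 8 gained and 12 lost the call, and none reversed.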
